A study of Mus musculus with 6 samples.

Results

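The Oas family of antiviral synthetases was examined in macrophages from MSR1 KO mice. The members were the 9 genes Oas1a, Oas1b, Oas1c, Oas1g, Oas1h, Oas2, Oas3, Oasl1 and Oasl2, out of 52550 genes in the deposited table. They were taken by gene symbol, and the family was chosen by measured values of this same contrast, since the counts of Oas2 were already known to be higher in MSR1 KO libraries. The comparison of genotypes is therefore given for these genes as a description, with calls but without p-values. RNA-seq counts came from 3 libraries of MSR1 KO and 3 libraries of MSR1 WT macrophages, both on a C57BL/6 background. MSR1 is macrophage scavenger receptor 1, a surface receptor that takes up modified lipoproteins and other polyanionic ligands, and the WT mice shared the genetic background of the KO mice. The age of the mice is not given in the sources used here. Bone marrow cells of either genotype were grown for 7 days with 25 ng/ml M-CSF, the growth factor that drives macrophage differentiation, and were then kept for 48 h beside bone marrow stem cells (BMSCs) across a transwell membrane. No interferon or virus is named in the protocol, and a group of macrophages without BMSCs was not analysed here.

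Oas enzymes sense double-stranded RNA, a by-product of viral replication, and join ATP into short chains called 2-5A, in which the nucleotides are linked from the 2′ to the 5′ position. 2-5A in turn leads to the cleavage of viral and cellular RNA. The genes are classical interferon-stimulated genes: interferon bound to its receptor activates transcription factors that bind a DNA motif called the interferon-stimulated response element (ISRE). Oas1a, Oas1g, Oas2 and Oas3 encode active synthetases, whereas the mouse genome also holds Oas1 copies that lack this activity and the Oas-like genes Oasl1 and Oasl2, whose proteins end in ubiquitin-like domains. Macrophages express several of these genes without infection.

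All 9 members lie on chromosome 5 (GRCm38) in a pair of clusters. Oasl2 (114896936 to 114912234) and Oasl1 (114923240 to 114937915) form the first one, and Oas2, Oas3, Oas1c, Oas1b, Oas1h, Oas1g and Oas1a follow in this order in the second one, from 120730333 to 120907521. The RefSeq promoter table (GRCm38.p6, 250 bases before to 50 bases after each start) held 7 of the 9 members, without Oas1b and Oas2. The core of the ISRE, taken as GAAA, then any 2 bases, then GAAA, was searched on both strands, and it was found in the promoters of Oas1a, Oas1g, Oas1c and Oas3, or 4 of these 7. It was found in 3.44% of all 32851 promoters in the table. The 4 stretches are shown because they carry the matches, which are in capitals. Neighbouring matches overlap by 4 bases, so a pair of them reads as 1 run of 16 capitals. All are written on the strand of the gene, which is the minus strand for each of them.
Oas1a, chr5:120907526-120907575: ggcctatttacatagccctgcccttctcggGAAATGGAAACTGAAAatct
Oas1g, chr5:120887614-120887661: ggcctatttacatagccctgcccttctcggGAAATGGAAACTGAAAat
Oas1c, chr5:120812583-120812658: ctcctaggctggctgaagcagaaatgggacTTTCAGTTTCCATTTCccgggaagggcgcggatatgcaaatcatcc
Oas3, chr5:120777695-120777764: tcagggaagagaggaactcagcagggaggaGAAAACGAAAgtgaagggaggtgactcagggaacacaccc

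The Oas1a and Oas1g promoters shared an identical run of 73 bases that includes both of their matches. In Oas1a the matches began 20 and 14 bases before the annotated start, and in Oas1g 18 and 12 bases before it. The Oas1c promoter held the same run of 16 bases in the opposite orientation. Oas1c and Oas1b are transcribed away from each other, with annotated starts 121 bases apart, and the run lay between them, from 120812613 to 120812628. It was separated by 98 bases from the start of Oas1c and by 6 bases from that of Oas1b, on whose strand it reads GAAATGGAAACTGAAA. The 16-base run occurred in 7 of the 32851 promoters, and the other genes carrying it were Apol9a and Apol9b. Oas3 had a single match, 75 bases before its start. The promoters of Oas1h, Oasl1 and Oasl2 held no match in this window. A match is a stretch of letters, and binding was not measured here.

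**Figure D1:**
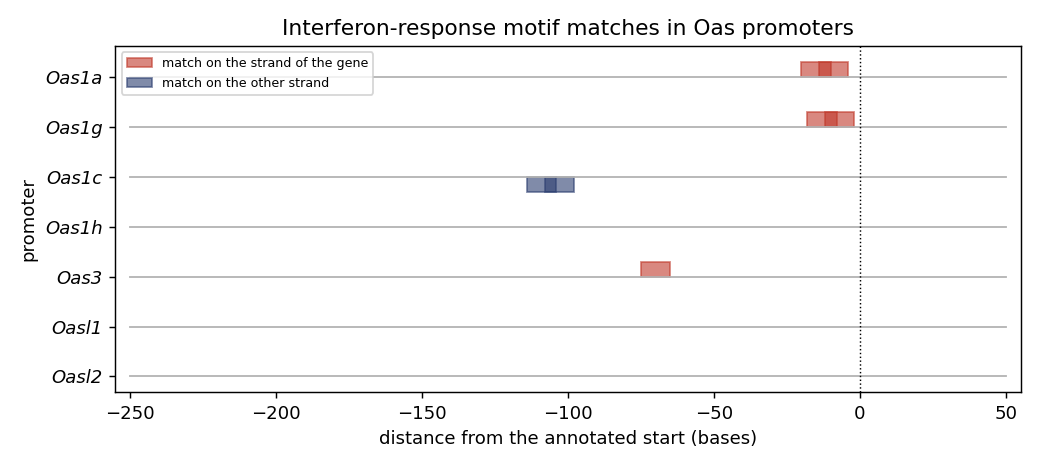
Positions of matches to the ISRE core in the 7 Oas promoters of the RefSeq table, by distance in bases from the annotated start (dotted line). Boxes above the line match on the strand of the gene and boxes below it on the other strand. Oas1a and Oas1g have overlapping pairs within 20 bases of the start, Oas1c has the pair in the opposite orientation, and Oas3 has a single match.

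Total counts ranged from 36143518 to 47417448 per library. Levels are given as CPM, the count relative to the library total after scaling by TMM, which evens out differences in composition between libraries. Msr1 had 2118, 1825 and 2000 counts across MSR1 KO libraries and 7543, 9163 and 9219 across MSR1 WT libraries, a log2 fold change (log2FC, MSR1 KO over MSR1 WT) of -2.02 (standard error, SE, 0.135). The quasi-likelihood test of edgeR gave it an adjusted p of 0.0012. Transcripts were reduced and not absent in the libraries labelled KO. Macrophage markers were abundant, with a summed level of 22520 to 23680 CPM over 8 genes in the MSR1 KO and 22830 to 25400 CPM in the MSR1 WT libraries. Lyz2 alone gave 12640 to 15860 CPM of it. Of the 8, Fcgr1, a high-affinity receptor for antibodies, rose with a log2FC of 1.14 and an adjusted p of 0.018 in edgeR. Markers of stromal cells, the cell type of the other compartment, were present too, at 1396 to 1904 CPM against 1834 to 2295 CPM. All 9 members passed the filter on low counts and entered the test over 16402 genes.

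Oas1a and Oas1g encode near-identical active synthetases. Oas1a (ENSMUSG00000052776.10) had 7247, 7909 and 10744 counts across MSR1 KO libraries and 4096, 4385 and 6008 across MSR1 WT libraries. This corresponds to 210 ± 17.9 CPM against 112 ± 28.8 CPM (SD, n = 3 each) and to a log2FC of 0.91 (SE 0.165). Oas1g (ENSMUSG00000066861.14) had 3912, 3627 and 5031 counts against 1877, 1901 and 3142, a log2FC of 0.93 (SE 0.221). For both genes every MSR1 KO library was above every MSR1 WT library, and MSR1 WT replicate 3 was the highest of its group. Their coding sequences were 96.7% identical, and 57.6% of the 50-base stretches of Oas1a transcripts also occurred in Oas1g, so reads could have been split between them. The ratio of Oas1a to Oas1g counts was 1.85, 2.18 and 2.14 across MSR1 KO libraries and 2.18, 2.31 and 1.91 across MSR1 WT libraries. The sum of both genes, which does not depend on how shared reads were divided between them, was 313 ± 24.9 CPM in MSR1 KO and 166 ± 48.2 CPM in MSR1 WT libraries (SD, n = 3 each).

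Oas1b and Oas1c are the divergent neighbours that flank the 16-base run. Oas1b is known as the flavivirus resistance gene of mice and carries a premature stop codon in most inbred laboratory strains. The annotation lists it as a polymorphic pseudogene. Oas1b (ENSMUSG00000029605.16) had 411, 360 and 588 counts across MSR1 KO libraries and 191, 263 and 425 across MSR1 WT libraries. It was the only member whose groups overlapped, as the 10.3 CPM of MSR1 WT replicate 3 exceeded the 9.04 CPM of MSR1 KO replicate 2. Its log2FC of 0.70 (SE 0.292) became 1.12 without MSR1 WT replicate 3 and 0.48 without MSR1 WT replicate 1. Oas1c (ENSMUSG00000001166.17), which encodes an Oas1 copy without synthetase activity, had 473, 411 and 783 counts against 363, 391 and 368. Its MSR1 WT libraries lay close together, at 8.24 to 8.90 CPM, and its MSR1 KO libraries spread from 10.3 to 16.8 CPM, just above them. The log2FC of Oas1c, 0.64 (SE 0.182), was the smallest of the family, and it was 0.44 without MSR1 KO replicate 3.

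Oas1h (ENSMUSG00000001168.16), a further Oas1 copy, was barely detected, with 15, 14 and 18 counts across MSR1 KO libraries and 3, 14 and 12 across MSR1 WT libraries. The summed counts were 47 (exact Poisson 95% interval 34.5 to 62.5) and 29 (19.4 to 41.6), intervals that overlap and cover counting error only. The log2FC was 0.80 with an SE of 0.618, and it was 0.39 without MSR1 WT replicate 1, so a difference was not resolved at this depth.

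Oas2 and Oas3 are the larger synthetases, built from repeated Oas units. Oas2 (ENSMUSG00000032690.16) had 7665, 7244 and 8818 counts across MSR1 KO libraries and 3827, 4312 and 4079 across MSR1 WT libraries, or 195 ± 16.4 CPM against 94.1 ± 4.09 CPM (SD, n = 3 each). Both groups were tight, and the lowest MSR1 KO library, at 182 CPM, was far above the highest MSR1 WT library, at 98.7 CPM. The log2FC was 1.05 with an SE of 0.0825, the smallest SE of the family, although 469 of the tested genes had a larger log2FC. Oas3 (ENSMUSG00000032661.9) had 15097, 20348 and 18516 counts against 5487, 5292 and 9884. It showed the largest log2FC of the family, 1.46, with an SE of 0.261. Its MSR1 WT libraries ranged from 112 to 239 CPM and its MSR1 KO libraries from 398 to 511 CPM, so the groups did not overlap. Neither gene shared more than 0.31% of its 50-base stretches with transcripts of another gene.

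Oasl1 and Oasl2 encode the Oas-like proteins. Oasl1, known as a negative regulator of IRF7 translation, has no synthetase activity, whereas mouse Oasl2 is an active synthetase. Oasl1 (ENSMUSG00000041827.15) had 2004, 3125 and 2933 counts across MSR1 KO libraries and 1136, 960 and 1961 across MSR1 WT libraries, a log2FC of 1.05 (SE 0.283). Oasl2 (ENSMUSG00000029561.17) had 9429, 10977 and 12158 counts against 4259, 7720 and 7614, a log2FC of 0.83 (SE 0.184). The groups of both genes did not overlap. The MSR1 KO libraries of Oasl2 were the most uniform of the family, at 262 to 276 CPM, whereas its MSR1 WT libraries ranged from 103 to 184 CPM.

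**Figure D2:**
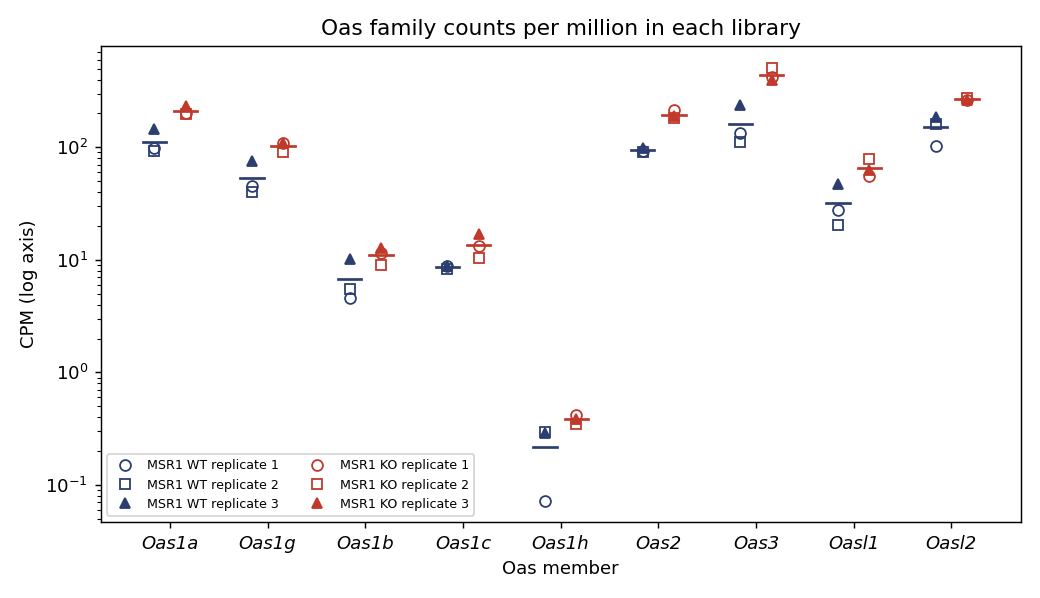
CPM of each Oas member in the 3 MSR1 WT (blue) and 3 MSR1 KO (red) libraries on a log axis, with a symbol per replicate number and a bar at the mean. The red points lie above the blue ones for 8 of the 9 members, and in Oas1b the highest blue point exceeds the lowest red one.

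The study defines differentially expressed genes (DEGs) by a change of more than 1.5-fold and p under 0.05, taken here as p before adjustment. By this definition 8 of the 9 members were higher in MSR1 KO libraries, and Oas1h was not called. This call was met in the same direction by 3.59% of all tested genes, and by 5.05% in the opposite one, where no member was called. At an adjusted p under 0.05 in edgeR (Benjamini-Hochberg, all tested genes), Oas1a, Oas2, Oas3 and Oasl2 were called higher, 4 of 9, beside 2.25% of tested genes, and no member lower, beside 2.66%. The log2FC was above 0 for 9 of 9 members and for 49.6% of tested genes. The groups did not overlap for 8 of 9 members, as they did upward for 12.1% of tested genes. These shares are printed for scale, since the family was chosen with this contrast in view. The median log2FC of the members was 0.91, beside -0.0023 over all tested genes. The number of members at an adjusted p under 0.05 was 7 without MSR1 WT replicate 3, beside 2.42% of tested genes called higher. It was 1, namely Oas2, with any 1 of the 3 MSR1 KO libraries or MSR1 WT replicate 2 left out. In these fits 0.25%, 0.574%, 1.09% and 0.369% of tested genes were called higher. The number was 2, Oas2 and Oasl2, without MSR1 WT replicate 1, beside 0.107% of tested genes. Calls thus fell over all tested genes as well as in the family. The known rise of Oas2 led to the choice of the family, so its remaining call is not an independent result.

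The family as a whole took 1280, 1345 and 1257 CPM of the unscaled MSR1 KO libraries and 518, 541 and 818 CPM of the unscaled MSR1 WT libraries. Oas3 supplied the largest share of these counts in 5 of 6 libraries, from 31.1% to 37.7% of family counts in MSR1 KO and from 20.97% to 29.5% in MSR1 WT libraries. In MSR1 WT replicate 2 it was exceeded by Oasl2, with 30.6%. The share of Oas2 was 13.4% to 16.6% in MSR1 KO and 12.2% to 18.02% in MSR1 WT libraries, so the groups overlapped.

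Levels were compared between genes as CPM per kilobase of merged exon length. By this length Oas1a was the highest member in both genotypes, at 59.6 ± 15.3 CPM per kilobase in MSR1 WT and 112 ± 9.51 in MSR1 KO libraries (SD, n = 3 each). In MSR1 WT libraries Oasl2 (23.5 ± 6.58), Oas1g (23.0 ± 8.28), Oas3 (22.8 ± 9.67) and Oas2 (21.1 ± 0.919) followed, with overlapping values between all neighbours, so their order was not resolved. Oasl1 stood lower, at 12.2 ± 5.40, with each library below the lowest value of Oas2. In MSR1 KO libraries Oas3 took the second place at 62.7 ± 8.45 and lay apart from both of its neighbours, while Oas1g (43.9), Oas2 (43.8) and Oasl2 (41.8) were not separated, and Oasl1 stood lower at 25.2 ± 4.44. Oas1c and Oas1b came next in both genotypes, at 5.59 and 5.54 in MSR1 KO and at 3.595 and 3.42 in MSR1 WT libraries, and their values overlapped. Oas1h was last with 0.226 and 0.129 CPM per kilobase. The order depended on the length used, as the merged exons of Oasl2 cover 6374 bases and its longest transcript 3123. Per kilobase of the longest transcript, Oasl2 moved from place 5 to place 3 in MSR1 KO libraries, at 85.3 ± 2.53, behind Oas1a at 112 ± 9.51 and Oas3 at 93.9 ± 12.7. In MSR1 WT libraries Oasl2 then stood at 48.0 ± 13.4, behind Oas1a at 59.6 ± 15.3. With this length the ranges of mean ± SD of Oas3 overlapped those of Oas1a and Oasl2 in MSR1 KO libraries. Those of Oas1a and Oasl2 overlapped in MSR1 WT libraries. Oas1a kept the highest mean, but the first places were separated with merged exon length only. Oas1d, Oas1e and Oas1f, copies in the same cluster that are outside the 9 members, had at most 4 counts in any library.

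**Figure D3:**
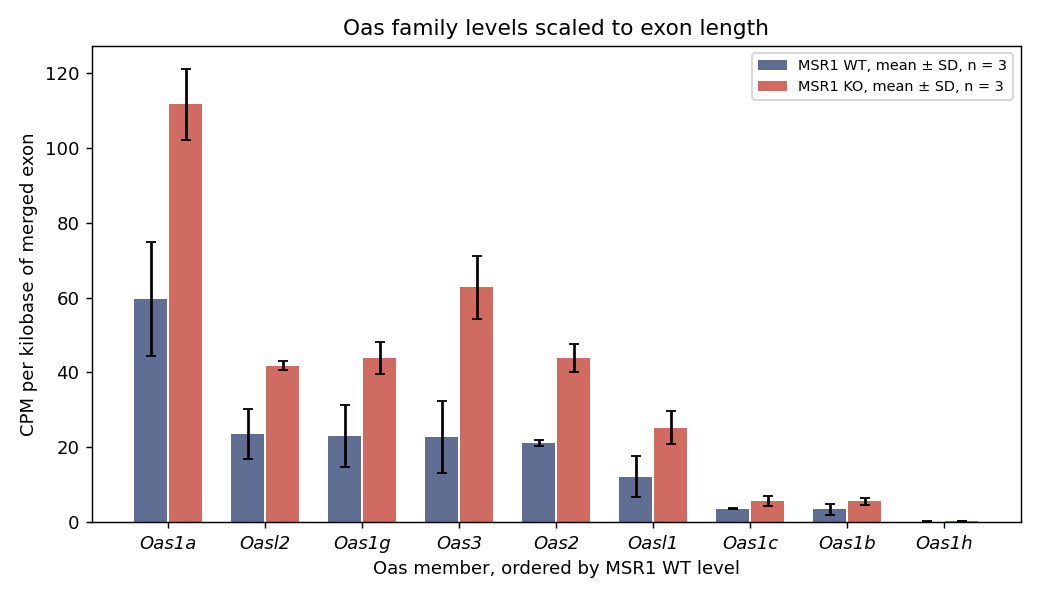
Mean level of each Oas member in CPM per kilobase of merged exon, in MSR1 WT (blue) and MSR1 KO (red) libraries, with error bars of 1 SD (n = 3). Oas1a is the highest in both genotypes, and Oas3 stands above Oas1g, Oas2 and Oasl2 in MSR1 KO libraries, whereas these 4 lie close together in MSR1 WT libraries.

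The spread within a genotype was not itself used to choose the family. For Oas2, whose rise was known, it is not independent of the choice, since a rise stands out more when groups are tight. Oas2 was at place 6 of the tested genes by unadjusted p, although 469 had a larger log2FC. For 7 of the 9 members the 3 MSR1 WT libraries covered a wider range than the 3 MSR1 KO libraries, measured as highest over lowest CPM, and this held for 44.2% of all tested genes. In MSR1 WT libraries this range was 2.35-fold for Oasl1, 2.22-fold for Oas1b, 2.15-fold for Oas3, 1.90-fold for Oas1g, 1.78-fold for Oasl2 and 1.57-fold for Oas1a, and in MSR1 KO libraries it was at most 1.41-fold for these genes. Oas1h also had a wider range in MSR1 WT libraries, on a lowest count of 3. The exceptions were Oas2 and Oas1c, whose MSR1 WT libraries agreed within 1.09-fold and 1.08-fold. MSR1 WT replicate 3 was the highest MSR1 WT library for 8 of the 9 members, against 35.1% of all tested genes, with Oas1h as the exception. Relative to the mean of MSR1 WT replicates 1 and 2, its level was 2.02-fold for Oas1b, 1.99-fold for Oasl1 and 1.96-fold for Oas3, but 1.08-fold for Oas2 and 1.05-fold for Oas1c. Without this library the log2FC of Oas3 was 1.86 and that of Oasl1 1.46, while that of Oas2 was 1.09. Among MSR1 KO libraries no single one was highest throughout: replicate 2 was highest for Oas3, Oasl1 and Oasl2, replicate 3 for Oas1a, Oas1b and Oas1c, and replicate 1 for Oas1g, Oas1h and Oas2.

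**Figure D4:**
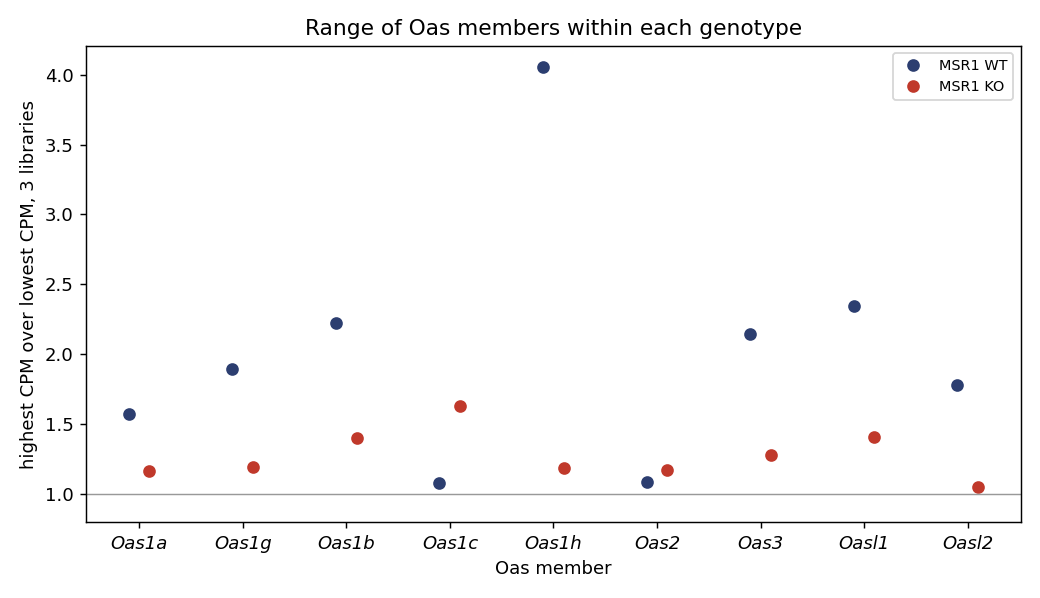
Highest over lowest CPM among the 3 libraries of each genotype for every Oas member. The MSR1 WT value (blue) is the larger one for 7 members, and Oas1c and Oas2, at 1.08 and 1.09, are the exceptions.

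The genes that act with the Oas enzymes were examined next. None of the 4 genes of the 2-5A pathway was called in either direction by edgeR or DESeq2, and none had an unadjusted p under 0.05 in either tool. Pde12, whose product degrades 2-5A, had a log2FC of 0.051 (SE 0.0999). Akap7, whose murine product also cleaves 2-5A, had one of 0.18 (SE 0.130). Abce1, a ribosome recycling factor, had one of -0.15 (SE 0.0710), and its MSR1 KO libraries all lay below those of MSR1 WT. The adjusted p of these 3 genes ranged from 0.32 to 0.85 in edgeR.

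Of 10 sensors of double-stranded RNA and DNA and their adaptors, 4 were DEGs in the upward direction, namely Zbp1, Dhx58, Ifih1 and Ddx58, and these with Eif2ak2 and Tmem173 gave 6 with an adjusted p under 0.05 in edgeR. The adjusted calls depended on single libraries: there were 0, 0 and 1 without MSR1 KO replicates 1, 2 and 3. There were 0, 0 and 6 without MSR1 WT replicates 1, 2 and 3, while 3 to 5 sensors were DEGs. Upward adjusted calls over all tested genes also fell, from 369 to 42, 97 and 183 without MSR1 KO replicates 1, 2 and 3. They were 18, 62 and 407 without MSR1 WT replicates 1, 2 and 3, so the loss was not limited to the sensors. Zbp1, a sensor of left-handed nucleic acid helices, rose from 55.6 ± 20.6 CPM in MSR1 WT to 172 ± 51.9 CPM in MSR1 KO libraries (SD), with a log2FC of 1.63 and an adjusted p of 0.026 in edgeR. Eif2ak2, which encodes the kinase PKR, rose with a log2FC of 0.57 (adjusted p = 0.032 from edgeR). Mb21d1 encodes cGAS, a nucleotidyltransferase of the same fold as the Oas enzymes, and it had a log2FC of 0.27 (SE 0.234) and an adjusted p of 0.61 in edgeR. Mavs, the adaptor of Ddx58 and Ifih1, had one of 0.011 (SE 0.0779).

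Interferon ligands were at the edge of detection. Of 20 ligand genes 17 had 0 counts in every library, and at this depth 0 counts are compatible with up to 3, or 0.0633 to 0.083 CPM. Ifnb1 had 8, 6 and 0 counts across MSR1 KO libraries and 0, 0 and 4 across MSR1 WT libraries, Ifne had 3 counts in MSR1 KO replicate 1, and Ifng had 4 counts in MSR1 WT replicate 1. None of the 20 entered the test. Of 18 genes for interferon receptors and their signalling, 6 were DEGs in the upward direction (among them Socs1, Irf7, Stat2, Usp18 and Irf1), and 5 had an adjusted p under 0.05 in edgeR, including Irf9, and 9 in DESeq2. These 5 became 0, 2 and 3 without MSR1 KO replicates 1, 2 and 3, and 0, 1 and 6 without MSR1 WT replicates 1, 2 and 3, while 6 to 7 were DEGs. Irf7, a transcription factor that amplifies interferon production, rose with a log2FC of 1.35 (adjusted p = 0.025 from edgeR), and Stat2, a subunit of the factor that binds the ISRE, with one of 1.27 (adjusted p = 0.019 from edgeR). The receptor subunits Ifnar1 and Ifnar2 had log2FCs of -0.089 and 0.24 (adjusted p = 0.52 and 0.072 from edgeR). Of 18 other interferon-induced antiviral effectors, all 18 were DEGs in the upward direction and 17 had an adjusted p under 0.05, with a median log2FC of 1.09. Ifi44 had the largest log2FC, 1.80, followed by Ifit2, Ifit3 and Rsad2 at 1.54 each, whose products block viral translation or, for Rsad2, make a chain-terminating nucleotide. Ifit1 was the exception, with an adjusted p of 0.052 in edgeR. These lists were written with earlier results in view, so their counts describe the libraries, beside 3.59% of all genes called higher. In the effectors, too, MSR1 WT replicate 3 was the highest MSR1 WT library for all 18. The 17 adjusted calls of edgeR became 18 without that library, but 0 and 4 without MSR1 WT replicates 1 and 2. They became 2, 5 and 7 without MSR1 KO replicates 1, 2 and 3. Upward adjusted calls over all tested genes moved in the same direction in each of these fits, here and for the signalling genes. All 18 effectors were DEGs with each of these libraries left out except MSR1 WT replicate 2, without which 17 were.

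**Figure D5:**
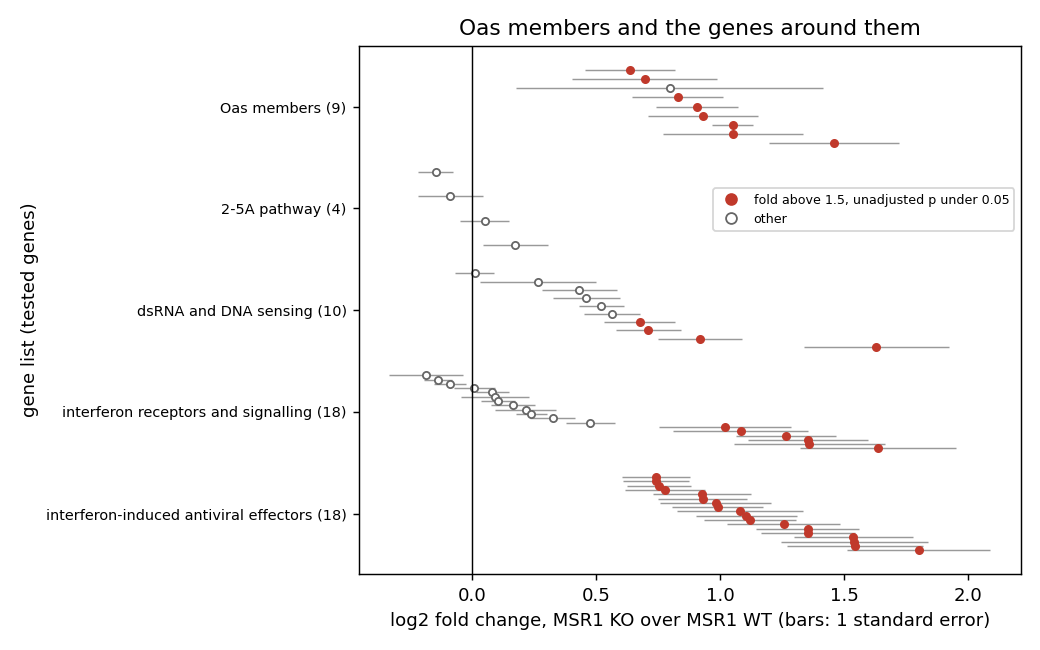
Log2 fold change of the tested genes of each list, MSR1 KO over MSR1 WT, with bars of 1 standard error, and filled points for DEGs. The 4 genes of the 2-5A pathway lie near 0, whereas the 9 Oas members and the 18 antiviral effectors all lie to the right of it.

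Markers of other cell types were measured beside these values. The summed level of 8 markers of T and NK cells was 19.7 to 25.6 CPM in the MSR1 KO and 5.39 to 17.6 CPM in the MSR1 WT libraries. MSR1 WT replicate 3 was the highest of its group, as it was for 8 of the 9 Oas members and for 35.1% of all tested genes. Gzma was highest in MSR1 WT replicate 1 instead. Of the 5 tested, Klrb1c and Gzma were DEGs in the upward direction by edgeR, beside 3.59% of all tested genes, and DESeq2 called 3. The T cell genes Cd3d, Cd3e, Cd3g and Cd8a had at most 29 counts in any library. Of 6 markers of plasmacytoid dendritic cells, which are strong interferon producers, the sum was 3.57 to 5.48 CPM against 1.48 to 3.51 CPM. Of the 3 tested, Ccr9 was a DEG in the upward direction, with 169, 143 and 142 counts against 20, 40 and 90 and a log2FC of 1.69 (adjusted p = 0.1 from edgeR). It was also called by DESeq2 at an adjusted p under 0.05, and MSR1 WT replicate 3 was the highest of its group for it. Siglech went the other way, with 15, 12 and 4 counts against 17, 10 and 31 and a log2FC of -0.78 (SE 0.721). Cox6a2, also tested, had a log2FC of 0.27 (SE 0.558), and the groups of both genes overlapped. Ccr9 alone gave 3.05 to 4.70 CPM of the sum in MSR1 KO and 0.485 to 2.18 CPM in MSR1 WT libraries. Ly6d and Klk1 were at 0 in every library. Of the 8 stromal markers, 2 (Col3a1 and Pdgfrb) were DEGs in the downward direction, beside 5.05% of all tested genes. None of the 8 neutrophil markers was a DEG by edgeR, though 1 had an unadjusted p under 0.05 and DESeq2 called 2 higher. Their summed level was 635 to 1038 CPM against 419 to 798 CPM. MSR1 WT replicate 3 was the highest MSR1 WT library for none of these 8 markers and for 1 of the 8 stromal markers. B cell markers had sums of 19.1 to 22.9 CPM against 15.4 to 20.2 CPM, nearly all from Cd79b. The part of these cells in the levels of Oas members was not tested, and in bulk RNA more cells of a type and more RNA per cell cannot be told apart.

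The genes most like Oas2 were sought among 13609 genes with a mean of at least 1 CPM, by the root mean square difference of log2 CPM centred on each gene's mean over the 6 libraries. The closest non-members were Cryba4 (0.092), a lens crystallin, Sorcs2 (0.0992), a receptor of the sortilin family, Fbxw17 (0.133), an F-box protein, the uncharacterized 4930430E12Rik (0.158) and Nt5c3 (0.159), a pyrimidine nucleotidase. Cryba4 had 404, 395 and 533 counts against 190, 252 and 226, and Sorcs2 94, 106 and 113 against 54, 52 and 54. Both lie on chromosome 5, Cryba4 from 112246493 to 112252518 and Sorcs2 from 36017180 to 36398139. Fbxw17, 4930430E12Rik and Nt5c3 lie on chromosomes 13, 4 and 6. Among the family, Oas1a was the most like Oas2 (0.206, at place 55), and Oas3 the least like it of the 7 compared (0.414, at place 1213). The distance includes the step between genotypes that was known for Oas2, so genes with a similar step and tight groups come out close. The 5 closest non-members were all DEGs, with log2FCs of 0.79 to 1.08, whereas Oas3 had one of 1.46. Shared regulation was not tested.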

How the data were processed

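RNA was sequenced from 3 MSR1 KO and 3 MSR1 WT libraries, which the study calls biological replicates, and groups and replicate numbers were taken from the sample labels. The authors deposited 1 table with raw counts per gene and library, not normalized. It also holds a signal column per library, which the authors made by dividing the count by a size factor and which entered no test, and the authors' log2 fold change and p-value columns, which were not used. The paper names TopHat and FPKM, whereas the submitters' processing notes name fastp 0.17.1, HISAT2 2.1.0, DESeq2 1.18.1 and R 3.4.3. The counting program, its treatment of reads with several alignments, the strandedness assumed and the build are not given in the sources used here. All 9 members had the same start and end in GENCODE M21 (GRCm38), as had 49035 of 52550 genes.

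Counts were filtered with filterByExpr, TMM-scaled, and compared in edgeR 4.0.16 (R 4.3.3) by its quasi-likelihood functions glmQLFit and glmQLFTest, with Benjamini-Hochberg adjustment over 16402 genes. Each standard error was obtained by dividing the absolute log2 fold change by √F. Log CPM values had a prior count of 2. The methods were tested on simulated counts. Intervals on counts cover counting error only. The members and lists were chosen with earlier results of these data known. Named genes were all members, Msr1, the 2-5A list, the called and up to 5 most changed genes of other lists, and the 5 closest to Oas2. Other genes named were chosen after their values were seen. Alternatives were DESeq2 1.42.0, its size factors, library size alone, other filters, a replicate block, each library left out and another gene length. Promoters came from RefSeq. Protein sequences were not analysed here, and some genes of the lists are counted but not reported by name.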

Additional observations from a re-analysis of the deposited data

How the results depend on the processing

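The count of 8 members called higher stayed between 7 and 8 under DESeq2, other scalings, other filters and the replicate block, and between 6 and 8 with each library left out. Oas1b lost its call with library size alone and without MSR1 KO replicate 1 or 3 or MSR1 WT replicate 1 or 2, and Oas1c without MSR1 KO replicate 3. Every member's log2 fold change stayed above 0 in all these alternatives, and Oas1h could not be tested with at least 10 counts required in every library. Left-out libraries gave ranges of 0.78 to 1.13 for Oas1a, 0.48 to 1.12 for Oas1b, 0.44 to 0.80 for Oas1c, 0.76 to 1.26 for Oas1g, 0.99 to 1.10 for Oas2, 1.25 to 1.86 for Oas3, 0.81 to 1.46 for Oasl1, 0.62 to 1.003 for Oasl2 and 0.39 to 1.07 for Oas1h. They gave -2.16 to -1.93 for Msr1, 3 to 5 sensors, 6 to 7 signalling genes, 17 to 18 effectors and 0 genes of the 2-5A pathway called. At an adjusted p under 0.05 the members numbered 4, and 6 with DESeq2, 5 with at least 10 counts in every library, 3 without a filter and 2 (Oas1a and Oas2) with the replicate number as a block, where 0.36% of all genes were called higher. With that block the adjusted calls fell to 0 sensors, 1 signalling gene and 2 effectors. Same-numbered libraries did not deviate together (correlations across genes of -0.026, 0.019 and -0.005), so the numbers do not pair the samples. Per kilobase of the longest transcript, 4 of 9 members kept their place in the order of levels in MSR1 KO and 7 in MSR1 WT libraries. The counts of 7 and 8 members for the spread within MSR1 WT libraries were the same with library size alone and with DESeq2 size factors, alternatives added after seeing the data. Over all genes, adjusted calls numbered 369 upward and 436 downward in edgeR, 727 and 850 with DESeq2, 237 and 288 without a filter, 59 and 78 with the block, and from 18 to 407 and from 53 to 372 with a library left out.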

Other observations

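Transcripts on the strand opposite to the Oas genes were also counted. Gm43068, which lies within Oas2 without sharing exon bases with it, was assigned 41, 22 and 26 counts across MSR1 KO libraries and 4, 12 and 27 across MSR1 WT libraries. Gm13822 shares 38 exon bases (1.46%) with Oasl1 and had 28, 9 and 41 counts against 4, 11 and 14. Gm43069 shares 227 exon bases (9.44%) with Oas1c and had 9, 0 and 34 counts against 17, 0 and 0. These counts are small beside those of Oas2, Oasl1 and Oas1c. Gm43069 also overlaps Oas1e, without shared exon bases, and Oas1e had 0 counts in every library. Without a stated strand setting, reads of Oas1c and Gm43069 in the shared bases cannot be told apart. These 3 genes were chosen after their values were seen.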
